A study of Homo sapiens with 12 samples.

Results

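The E2F transcription factors and the retinoblastoma protein, 10 genes in all, were followed after SLMP53-2 treatment of HuH-7 cells. They are the activators E2F1, E2F2 and E2F3, the repressors E2F4, E2F5 and E2F6, the atypical members E2F7 and E2F8, the dimer partner TFDP1 and the pocket protein RB1. A gene probe belonged to the set when the scanner files gave it one of these names. That held for 17 of the 41000 gene probes, and for 10 of the 29123 gene names on the array. The activators have 4 probes, the repressors 7, the atypical members 2, and TFDP1 and RB1 4 together. All 17 probes passed the filter on low signal, so no member was lost. E2F1, E2F3, E2F5, E2F7 and E2F8 are each measured by 1 probe.

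E2F proteins switch on the genes that a cell needs to enter S phase and copy its DNA. Most of them bind DNA together with a DP protein such as TFDP1, and RB1 and its relatives hold them in check until cyclin-dependent kinases phosphorylate RB1. E2F7 and E2F8 need neither a DP partner nor a pocket protein. They repress E2F target genes later in the cycle, and both matter in the liver, where they act on the ploidy of hepatocytes.

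HuH-7 is an established human hepatocellular carcinoma line that carries the Y220C mutation of p53 in all groups. Cells received the solvent DMSO, 28 µM SLMP53-2 or 42 µM SLMP53-2 for 24 h. SLMP53-2 is a small molecule that the study examined as a reactivator of this p53 mutant, and the doses are 2 and 3 times its IC50. For the higher dose some labels of these arrays state 48 µM instead, and 42 µM is used throughout. Each group holds 4 arrays of 1 colour, which the methods call biological replicates, and the 12 arrays lie on 5 slides. No other cell line, no non-cancer liver cell and no untreated culture without DMSO was analysed here, so the values describe 1 line.

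A value is the brightness of a probe on the log2 scale after background correction and quantile normalization, so a difference of 1 is a doubling. Levels of different probes were not compared, since brightness also depends on the probe. Where a gene has several probes, the brightest stands for it and the others are given too. A gene was called when limma's test gave a Benjamini-Hochberg adjusted p below 0.05 over all 33467 tested probes and the log2 fold change was at least 0.6 in size. Between 65.0% and 85.0% of the gene spots of an array were well above background, and the number of arrays limits the precision. All 8 hepatocyte markers were well above background on all 12 arrays, while the leukocyte marker PTPRC was so on none. The other 11 leukocyte, fibroblast and endothelial markers were detected on most arrays, and none of the 19 tested markers was called at either dose. One array, 28 µM replicate 4, lay near the DMSO mean for E2F1 and for the median of the G1/S target genes (0.02 above it on the log2 scale). It differed from that mean by -0.27 for E2F8, -0.50 for E2F2, -0.59 for RB1, 0.50 for TFDP1 and 0.95 for E2F4. It was singled out from these values, so what is given without it at 28 µM is a description and supports no call.

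Several E2F genes are known targets of E2F proteins themselves, so promoters of 4 members are shown. E2F1, E2F2 and E2F7 lay below DMSO on every 42 µM array, and E2F3, which did not, stands beside them. E2F8 and TFDP1 also lay below DMSO on every 42 µM array but are not shown. The windows come from RefSeq (GRCh38.p14), which gave one for 8 of the 10 members and none for E2F5 and E2F8. Each line holds the 250 bases before the transcription start, 5′ to 3′ on the strand of the gene. Capitals mark the core E2F motif on either strand, in the form TTTCCCG, the form TTTCGCG, the form TTTGGCG or the form TTTGCCG.
E2F1 (chr20:33686386-33686635, minus strand): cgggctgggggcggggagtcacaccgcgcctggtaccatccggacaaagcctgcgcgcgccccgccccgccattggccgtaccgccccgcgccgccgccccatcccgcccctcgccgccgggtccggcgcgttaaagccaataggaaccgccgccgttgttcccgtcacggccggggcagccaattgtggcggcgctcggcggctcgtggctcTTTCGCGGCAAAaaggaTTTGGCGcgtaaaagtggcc
E2F2 (chr1:23531234-23531483, minus strand): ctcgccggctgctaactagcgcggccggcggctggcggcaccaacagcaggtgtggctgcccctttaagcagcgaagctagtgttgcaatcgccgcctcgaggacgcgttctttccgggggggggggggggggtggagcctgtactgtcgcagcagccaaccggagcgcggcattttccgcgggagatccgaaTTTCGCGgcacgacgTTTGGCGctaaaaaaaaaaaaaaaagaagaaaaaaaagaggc
E2F3, first window (chr6:20401629-20401878, plus strand): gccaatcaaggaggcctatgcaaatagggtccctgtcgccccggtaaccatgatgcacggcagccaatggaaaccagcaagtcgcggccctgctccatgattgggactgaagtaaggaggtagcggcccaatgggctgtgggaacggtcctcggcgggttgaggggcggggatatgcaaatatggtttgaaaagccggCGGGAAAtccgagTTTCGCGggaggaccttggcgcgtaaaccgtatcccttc
E2F7 (chr12:77065570-77065819, minus strand): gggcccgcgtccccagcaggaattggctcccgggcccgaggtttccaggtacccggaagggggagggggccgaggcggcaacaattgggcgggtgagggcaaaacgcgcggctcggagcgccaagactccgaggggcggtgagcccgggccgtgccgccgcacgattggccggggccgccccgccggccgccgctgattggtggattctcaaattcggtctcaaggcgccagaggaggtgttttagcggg

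E2F1 holds 3 matches, which begin 37, 32 and 20 bases before the start, and the first 2 overlap and read as one capital run. E2F2 holds matches 57 and 42 bases before the start, and E2F3 holds them 52 and 39 bases before it. The second E2F3 window, the E2F4 window and the E2F7 window hold none of these letters. Of the 8 windows of members other than RB1, 5 hold at least 1 match and 4 hold 2 or more, counted over 250 bases before to 50 after the start. The RB1 window, left out of that count, holds 0. The E2F6 window holds 2 matches, although the E2F6 groups overlapped, and the TFDP1 window holds 1. Over all 35116 windows the shares are 8.67% and 0.681%. A match is a description of the sequence and does not show that an E2F protein binds there.

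At 42 µM, 3 of the 10 members were called and all 3 were lower than under DMSO: E2F8, E2F2 and E2F7. Over all genes tested 1.42% were called lower and 3% were called in either direction. The members were chosen with earlier results of these data known, so these shares are a description. By class, both atypical members were called, 1 of the 3 activators was called and none of the 3 repressors was. E2F1 and TFDP1 also lay below all DMSO arrays on every 42 µM array without reaching the adjusted limit, which makes 5 of 10 members whose groups do not overlap, beside 7.02% of all genes in that direction. The same 5 members had an unadjusted p below 0.05, beside 16.1% of all genes. The median log2 fold change was -1.14 for the atypical members, -0.77 for the activators and -0.03 for the repressors, beside -0.02 over the 24168 gene names tested. Over the whole series 343 genes were called lower and 381 higher at 42 µM, and scaling the arrays to the 75th percentile in place of quantile normalization turned that split to 420 and 256, or to 292 and 201 from the processed signal. In RNA from whole cultures, fewer cells in a phase of the cycle and less RNA per cell cannot be told apart.

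**Figure D1:**
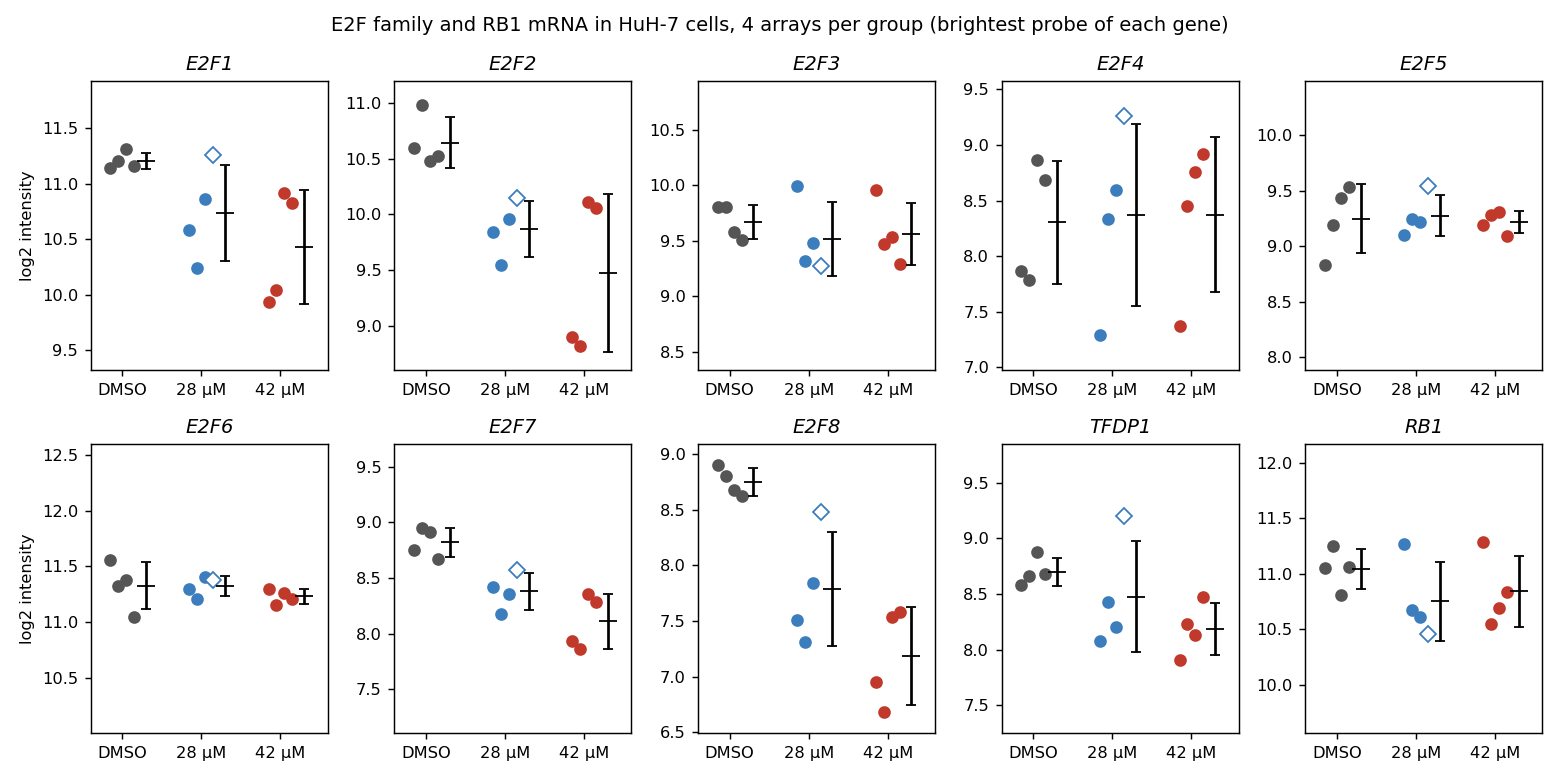
Log2 intensity of the brightest probe of each member on every array, by group; points are arrays, the open diamond is 28 µM replicate 4, and the bar beside each group is the mean with its SD (n = 4). Each panel spans the same range of log2 units; the 42 µM points of E2F1, E2F2, E2F7, E2F8 and TFDP1 lie below all DMSO points, while those of E2F3, E2F4, E2F5, E2F6 and RB1 overlap them.

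Among the activators, E2F1 is the best known driver of S phase entry. Its probe lies at chr20:32263989-32264048 (hg19, minus strand) and is printed 10 times on each array. E2F1 read 11.14, 11.21, 11.31 and 11.16 on the DMSO arrays, 10.58, 10.25, 10.86 and 11.26 at 28 µM, and 9.94, 10.04, 10.92 and 10.83 at 42 µM. The DMSO arrays lie close together, every 42 µM array is below them, and the 42 µM arrays fall into a lower pair and a higher pair. At 42 µM the log2 fold change was -0.77 (SE 0.24, 95% interval -1.29 to -0.25, limma adjusted p = 0.112), which did not pass. At 28 µM it was -0.47 (adjusted p = 0.506), and -0.64 (adjusted p = 0.207) without replicate 4, which read as high as DMSO.

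E2F2, an activator that is expressed mainly in dividing cells, has 2 probes that disagree. The brighter, at chr1:23832933-23832992 (hg19, minus strand), read 10.60, 10.98, 10.48 and 10.52 under DMSO, 9.84, 9.55, 9.96 and 10.14 at 28 µM, and 8.90, 8.82, 10.11 and 10.06 at 42 µM. All 8 treated arrays are below all DMSO arrays, and 42 µM replicates 1 and 2 are the lowest. The log2 fold change of -1.17 at 42 µM (SE 0.28, 95% interval -1.77 to -0.57, limma adjusted p = 0.0394) left 44.4% of the DMSO level and was called. At 28 µM it was -0.77 (adjusted p = 0.326) and -0.86 (adjusted p = 0.183) without replicate 4. The call at 42 µM did not hold with the processed signal (adjusted p = 0.0702 with quantile normalization), with slide as a block (0.0716), with only the compared groups in the model (0.0561), or in fits that lacked any one DMSO array, the third 28 µM array, or the first or the second 42 µM array (-1.23 to -0.95).

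The dimmer E2F2 probe begins 3442 bases earlier on the same transcript, at chr1:23836375-23836434 (hg19, minus strand), and is shown because it does not follow the brighter one.
E2F2, dimmer probe: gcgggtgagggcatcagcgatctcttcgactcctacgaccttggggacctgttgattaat
It read 7.75, 7.37, 7.48 and 7.39 under DMSO, 7.62, 7.20, 7.53 and 7.49 at 28 µM, and 7.35, 7.81, 7.39 and 7.35 at 42 µM. The groups overlap, and the log2 fold change at 42 µM was -0.02 (SE 0.14, 95% interval -0.33 to 0.29, adjusted p = 0.971). The difference between the probes within an array was not tested, and their correlation over the 12 arrays was -0.12. The brighter probe has 35.0% G and C bases and the dimmer 55.0%. With the mean of both probes the fall at 42 µM was -0.60, under the size limit, so the E2F2 result rests on 1 probe.

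**Figure D2:**
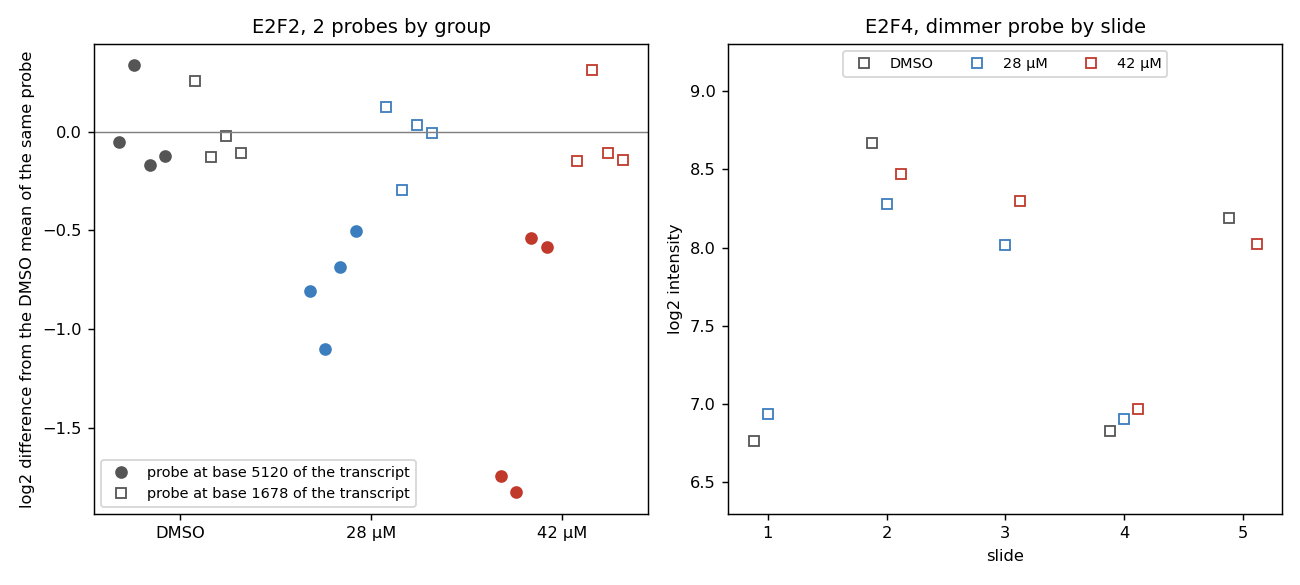
Left, log2 difference of each E2F2 probe from its own DMSO mean by group, with filled circles for the probe at base 5120 of the transcript and open squares for the one at base 1678; right, log2 intensity of the dimmer E2F4 probe by slide, coloured by group. The filled E2F2 circles fall with treatment and the squares stay around 0, while the E2F4 probe reads 6.76 to 6.97 on slides 1 and 4 and 8.02 to 8.67 on the others in every group.

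E2F3, the remaining activator, did not follow the other 2. It read 9.80, 9.80, 9.58 and 9.50 under DMSO, 10.00, 9.32, 9.48 and 9.28 at 28 µM, and 9.96, 9.47, 9.53 and 9.29 at 42 µM. Replicate 1 is the highest array at either dose, and the 3 groups overlap. At 42 µM the log2 fold change was -0.11 (95% interval -0.49 to 0.27, adjusted p = 0.861) and -0.15 at 28 µM (adjusted p = 0.775). A change of the size limit lies outside that interval at 42 µM in both directions.

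The repressors showed no difference that passed. E2F4, the E2F most abundant in resting cells, where it works with the RB1 relatives, read 7.87, 7.79, 8.87 and 8.69 under DMSO, 7.29, 8.34, 8.60 and 9.26 at 28 µM, and 7.37, 8.45, 8.75 and 8.92 at 42 µM. Every group spans more than 1 log2 unit, so the 95% interval at 42 µM, -0.82 to 0.96 around 0.07, does not exclude a change of the size called elsewhere. The dimmer E2F4 probe gave 0.33 at 42 µM (SE 0.47, adjusted p = 0.836). On slides 1 and 4 it read 6.76 to 6.97 and on slides 2, 3 and 5 it read 8.02 to 8.67, whatever the group. Its SD within groups was 0.79, and 0.16 once slide was a term of the fit.

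E2F5, which acts with the RB1 relatives as E2F4 does, read from 8.83 to 9.53 under DMSO, from 9.10 to 9.54 at 28 µM and from 9.09 to 9.31 at 42 µM. The log2 fold change of E2F5 at 42 µM was -0.03 (95% interval -0.36 to 0.30, adjusted p = 0.962), so a change as large as that of E2F7 lies outside the interval. E2F6 represses without pocket proteins, as part of a Polycomb complex, and has 4 probes. Its brightest probe read from 11.04 to 11.56 under DMSO, from 11.20 to 11.40 at 28 µM and from 11.15 to 11.30 at 42 µM. The log2 fold change at 42 µM was -0.10 (95% interval -0.35 to 0.16, adjusted p = 0.797). The other 3 probes of E2F6 gave 0.07, -0.01 and -0.03 at 42 µM and 0.21, -0.01 and -0.02 at 28 µM, none of which passed.

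Both atypical members fell at 42 µM. E2F8 is measured by a probe at chr11:19245675-19245734 (hg19, minus strand). It read 8.90, 8.80, 8.68 and 8.62 on the DMSO arrays, 7.50, 7.31, 7.84 and 8.48 at 28 µM, and 6.95, 6.68, 7.54 and 7.58 at 42 µM. All 8 treated arrays are below all 4 DMSO arrays, and 28 µM replicate 4 is the one nearest to them. At 42 µM the 95% interval of the log2 fold change ran from -2.09 to -1.03, the level was 33.8% of DMSO, and E2F8 ranked 20 from the lowest among the 24168 gene names. On the 3 slides that hold both groups the difference was -1.67, -2.00 and -1.27. With slide as a block the log2 fold change was -1.52 and the adjusted p was 0.0598. Without DMSO replicate 2 it was -1.55 (0.0505) and without 42 µM replicate 2 it was -1.40 (0.0522). With slide as a random term, a correlation of 0.193 shared by arrays of a slide, E2F8 stayed called.

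At 28 µM E2F8 was not called, with a difference of -0.97 on the log2 scale (SE 0.25, 95% interval -1.50 to -0.44, limma adjusted p = 0.195). Leaving out replicate 4, the treated array nearest to DMSO, gave -1.20 (SE 0.21, adjusted p = 0.0125), a value that depends on having chosen that array by its readings. No gene at all was called at 28 µM with all arrays (0% of 24168), where 11.9% had an unadjusted p below 0.05, and 3 members were among these: E2F2, E2F7 and E2F8. The same 3 lay below all DMSO arrays on every 28 µM array, beside 2.93% of all genes. Without replicate 4, 2.43% of genes were called in either direction and 0.981% were called lower.

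E2F7, the partner of E2F8 in repression, is measured at chr12:77415520-77415579 (hg19, minus strand). It read 8.75, 8.95, 8.91 and 8.67 under DMSO, 8.42, 8.17, 8.35 and 8.57 at 28 µM, and 7.93, 7.87, 8.36 and 8.28 at 42 µM. The treated arrays again all lie below the DMSO arrays. The log2 fold change at 42 µM was -0.71 (SE 0.14, 95% interval -1.01 to -0.41, limma adjusted p = 0.0183), or 61.1% of the DMSO level. Within the shared slides the difference was -0.74, -1.05 and -0.59, and with slide as a block the fit gave -0.72 (adjusted p = 0.0651). The call was also lost without DMSO replicate 1, 2 or 3 or 42 µM replicate 1 or 2, where the value was -0.73 to -0.63. The call held with slide as a random term. With all arrays, the change of -0.71 did not reach the 2-fold limit that the methods name. At 28 µM the value was -0.44 (adjusted p = 0.258), and -0.50 (adjusted p = 0.107) without replicate 4.

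**Figure D3:**
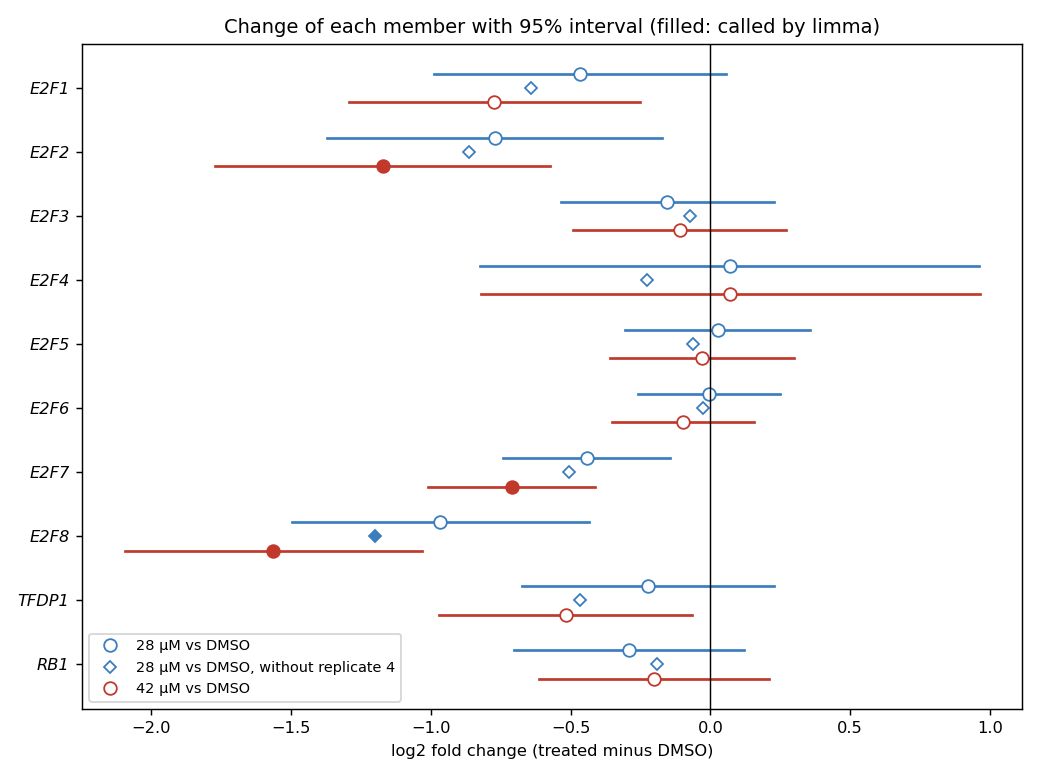
Log2 fold change of each member against DMSO with its 95% interval, for 28 µM and 42 µM, and as diamonds for 28 µM without replicate 4; filled symbols passed the test and the size limit. The filled symbols are E2F2, E2F7 and E2F8 at 42 µM and E2F8 at 28 µM without replicate 4. That last symbol is a description and supports no call, since the array was left out for its readings. The E2F4 interval is the widest drawn, from -0.82 to 0.96.

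TFDP1, which lets the typical E2F proteins bind DNA, read 8.58, 8.66, 8.88 and 8.68 under DMSO, 8.07, 8.43, 8.21 and 9.20 at 28 µM, and 7.90, 8.23, 8.13 and 8.47 at 42 µM. At 28 µM replicate 4 is the highest of all 12 arrays, while the others are below DMSO. The log2 fold change was -0.52 at 42 µM (95% interval -0.97 to -0.07, adjusted p = 0.240) and -0.22 at 28 µM (adjusted p = 0.721), or -0.46 (adjusted p = 0.142) without replicate 4. Its dimmer probe, detected on 3 of 4 arrays at 28 µM, gave -0.22 at 42 µM (adjusted p = 0.625).

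RB1, the tumour suppressor that binds and silences the activators, did not pass at either dose. Its brighter probe, also printed 10 times, read from 10.81 to 11.25 under DMSO, from 10.45 to 11.27 at 28 µM and from 10.55 to 11.28 at 42 µM. The groups overlap, with replicate 1 above every DMSO array at either dose. The log2 fold change was -0.20 at 42 µM (95% interval -0.61 to 0.21, adjusted p = 0.714) and -0.29 at 28 µM (adjusted p = 0.601), while the dimmer probe gave -0.02 and 0.05. The probes of RB1 ran against each other over the arrays, with a correlation of -0.70. A change of RB1 mRNA says nothing of its phosphorylation, which arrays do not measure.

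Between the doses no member was called, nor was any other gene (0% of 24168, with 2.57% at an unadjusted p below 0.05). E2F8 had the largest difference of the members, -0.60 at 42 µM against 28 µM (95% interval -1.13 to -0.07, unadjusted p = 0.0304, limma adjusted p = 0.9995). For E2F2 it was -0.40, for E2F1 -0.31, for TFDP1 -0.29 and for E2F7 -0.27, and the groups overlapped for every member. A dose step for these genes was therefore not shown, and the intervals do not exclude one.

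**Figure D4:**
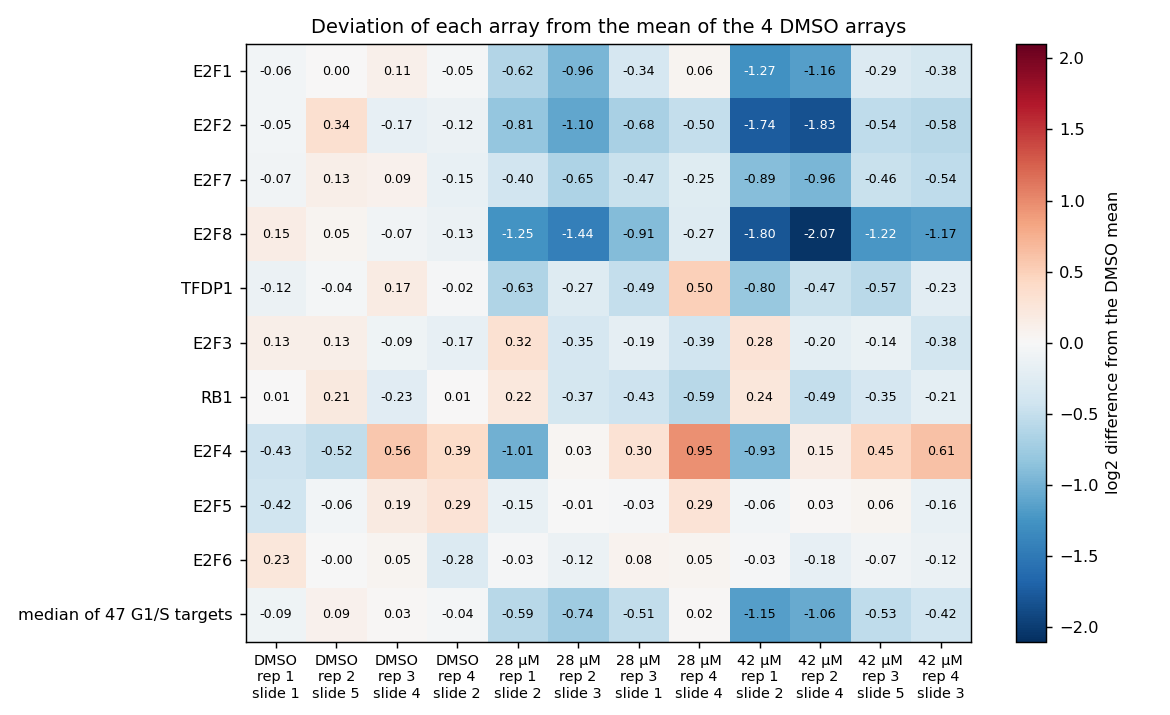
Log2 difference of each array from the mean of the 4 DMSO arrays, members in rows (with the median of 47 G1/S target genes at the bottom) and arrays in columns with their replicate and slide. E2F1, E2F2, E2F7 and E2F8 are lowest on 42 µM replicates 1 and 2, and the same columns are lowest for the target genes, while 28 µM replicate 4 reads near 0 for E2F1 and for the targets.

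E2F1, E2F2, E2F7 and E2F8 varied together. Over the 12 arrays, which share treatments and slides, the correlations among these 4 were 0.91 to 0.96. Each correlated at 0.94 to 0.97 with the median of 47 known E2F target genes of the G1/S transition, a list that holds none of the members. After the group means were taken off, these correlations with the targets were still 0.96 for E2F1, 0.86 for E2F2, 0.88 for E2F7 and 0.92 for E2F8. TFDP1 correlated with the target median at 0.82 over all arrays and at 0.73 once the group means were taken off, and E2F4 at 0.36 and 0.66. For E2F3 the values were -0.13 and -0.49, and for RB1 they were 0.04 and -0.38. All are descriptions without a test.

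The 5 genes whose pattern over the 12 arrays was most like that of each called member are given with their correlation r. For E2F8 they were TK1 (r = 0.993), a thymidine salvage kinase, SLC1A3 (0.987), a glutamate transporter, SPC25 (0.987), a kinetochore subunit, PLK1 (0.986), a mitotic kinase, and HIST1H1C (0.984), a linker histone. For E2F7 they were ARHGEF39 (0.977), RAD54L (0.973) and FIGNL1 (0.968), which act in recombination, SPC25 (0.966) and TYMS (0.966), the thymidylate synthase. For E2F2 they were CHAF1B (0.973), a histone chaperone subunit, PKMYT1 (0.971), an inhibitory kinase of CDK1, ELL2 (0.961), an elongation factor, HIST1H3B (0.954) and AUNIP (0.953).

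Of the 47 target genes, 20 (42.6%) were called lower at 42 µM, where 1.42% of all genes were. Like the other lists, this one was chosen with earlier results of these data known, so the shares are a description. All 47 had a mean below that of DMSO, where 54.3% of all genes had one. The median log2 fold change of the 47 was -0.80, beside -0.02 over all genes. RRM2, a ribonucleotide reductase subunit, fell by 1.69 on the log2 scale (limma adjusted p = 0.0215), TK1 fell by 1.62 (0.0159), FBXO5, an inhibitor of the anaphase-promoting complex, fell by 1.38 (0.0131), and the cyclin CCNA2 fell by 1.29 (0.0377). At 28 µM 46 of 47 were lower, beside 54.6% of all genes, with a median of -0.45. None was called, although 23 had an unadjusted p below 0.05, beside 11.9% of all genes. Without 28 µM replicate 4, the array singled out by its readings, 4 were called lower, beside 0.981% of all genes. The count of 20 was 0 without DMSO replicate 2 or without 42 µM replicate 2, 2 without DMSO replicate 1, 3 without DMSO replicate 4, 5 without 42 µM replicate 1, 6 without DMSO replicate 3 and 10 without 28 µM replicate 3. With slide as a block none of the 47 was called. Over all genes the number called at 42 µM was 0 without either of these second replicates and 1 with slide as a block. The RefSeq table held 60 windows for 40 of the 47 targets. The core E2F motif was found in 28 of the 60 windows (46.7%), beside 8.67% of all 35116 windows. The list was made of known E2F targets, so this share is a description.

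Upstream of RB1, 1 of 8 kinases and cyclins was called at 42 µM, where 3% of all genes were: CCNE1, the cyclin E1 that drives CDK2 and is itself an E2F target, fell by 0.86 (limma adjusted p = 0.0401). CDK4, the partner of the D cyclins, had a log2 fold change of 0.58 with an adjusted p of 0.0411, just under the size limit. Of 7 CDK inhibitors 2 were called lower. CDKN2C fell by 1.16 on the log2 scale (adjusted p = 0.0159) and CDKN1C fell by 1.08 (adjusted p = 0.0464). CDKN1A, the p21 inhibitor that p53 induces, read higher on every treated array than on any DMSO array but was not called, with a log2 fold change of 0.31 at the higher dose (adjusted p = 0.160) and of 0.26 at the lower (0.409). CDKN2B, an inhibitor of CDK4 and CDK6, was at 0.41 at 42 µM (adjusted p = 0.228). CCNF, the cyclin F of a ubiquitin ligase that acts on E2F proteins, was the one called among 4 such subunits and fell by 1.25 (adjusted p = 0.0268). None of the calls in these 3 lists held with slide as a block, without DMSO replicate 2 or without 42 µM replicate 2.

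The remaining lists had no called gene at 42 µM. Of 8 tested pocket proteins, dimer partners and MuvB subunits none was called, with LIN9, a MuvB subunit, at -0.65 (adjusted p = 0.0706), and TFDP3 was not tested for its low signal. Of 8 corepressors that RB1 recruits none was called, with the histone methyltransferase SUV39H1 at -0.69 (adjusted p = 0.243). Of 10 partners in the E2F6 Polycomb complex none was called, with CBX3 at -0.47 (adjusted p = 0.136). Of 6 apoptotic targets of E2F1 none was called. The medians of these lists lay between -0.12 and 0.02.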

How the data were processed

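RNA of HuH-7 cells was measured on 12 Agilent arrays of 1 colour, grouped by the labels' treatment. The authors deposited Feature Extraction output (version 10.7.3.1 per the file headers), with intensity values of each spot and its background, and log2 values that the authors had normalized by quantiles after Edwards background correction. Replicates are biological per the methods. No depth exists for arrays.

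Control spots and outlier spots were left out, then the Edwards correction, quantile normalization and averaging of spots were applied to the intensities with limma 3.58.1 in R 4.3.3 (data.table version 1.17.8). One group model of all 12 arrays was fitted with lmFit and eBayes. The correction, the normalization, a filter on low signal and limma follow the authors' methods, while leaving out outlier spots and averaging spots were choices made here. A probe was tested when at least 0.5 of its spots were well above background on 2 or more of 4 arrays of a group, which kept 33467 probes of 24168 gene names. Two-sided p-values were adjusted by Benjamini and Hochberg's method over all tested probes. The methods name a 2-fold limit, tried as an alternative.

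Members and lists were chosen with earlier results of these data known. Named are all members, the 5 genes most correlated with each called member, and from each list at most 4 called genes of largest change each way, or the gene of largest change where none was called; CDK4, CDKN1A and CDKN2B were added after their values were seen, and 1 gene that the rule names is not reported here. The limma step was tested on simulated data. Promoter windows and names of genes on GRCh38.p14 are from RefSeq, probe positions are on hg19 as the file headers give them, and builds were not mixed. Alternatives covered the signal, background correction, normalization, filter, blocks for slide and replicate number, the model, limits, probe choice and leaving out each array. Plots were made with Python 3.11.15, pandas 2.3.3, numpy 2.4.6 and matplotlib 3.10.9.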

Additional observations from a re-analysis of the deposited data

Results flagged for a closer look

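The dimmer E2F2 probe read 7.81 on 42 µM replicate 2, above the other 3 arrays of that group, of which the nearest read 7.39. The gap was 0.911 of the range of the group, over Dixon's limit of 0.829 for 4 arrays. It was 1 of 51 groups of member probes examined, and chance flags about 1 in 20 groups. On the same array the brighter E2F2 probe had its lowest value, 8.82.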

How the results depend on the processing

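The number of members called at 42 µM was 3. It was 0 with slide as a block, where 5 members had an unadjusted p below 0.05, and 0 to 3 when single arrays were left out: 0 without DMSO replicate 2 or 42 µM replicate 2, and 1 without DMSO replicate 1, DMSO replicate 3 or 42 µM replicate 1. The E2F2 call was lost without each of these 5 arrays and without DMSO replicate 4 or 28 µM replicate 3, the E2F7 call without each of the 5, and the E2F8 call without DMSO replicate 2 (adjusted p = 0.0505) or 42 µM replicate 2 (0.0522), and all 3 kept their direction. With slide as a random term in place of a block, E2F7 and E2F8 stayed called at 42 µM. At 28 µM members called were 0, and 0 to 1 when arrays were left out. Target genes called at 42 µM were 20, 7 with the quantile normalized processed signal, 7 with a log2 limit of 1, 0 with slide as a block and 0 to 25 when arrays were left out. At 28 µM they were 0, and 0 to 4 when arrays were left out. Between the doses every alternative gave 0 for members and targets. Of 840 member values under alternatives, 817 kept their side of the threshold and 44 changed sign, all for E2F3, E2F4, E2F5, E2F6 and RB1 and none of a called value. The alternative log2 limits are not among the 840. With a log2 limit of 1, E2F2 (-1.17) and E2F8 (-1.56) stayed called at 42 µM and E2F7 (-0.71) did not. Sign changes by over 1 replicate SD were seen for E2F6 at 28 µM with any tested probe (0.21) and between the doses with the quantile normalized processed signal (0.059), and the others were smaller. With an array left out or a block added the fit has fewer degrees of freedom, and the cause was otherwise not tested.

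The replicate numbers were not taken to pair the arrays, by a rule that every same-numbered pair exceed 0.1, which cannot exclude a pairing. Deviations of same-numbered arrays correlated from -0.46 to 0.62 with a median of 0.22, and 7 of 12 pairs exceeded 0.1. The median was -0.18 for pairs that share neither number nor slide, of which 7 of 28 exceeded it. For the 9 pairs on the same slide the median was 0.26. The highest value, 0.62, is that of replicate 1 at 28 µM and at 42 µM, which also share slide 2. Whether the numbers pair the arrays was not tested. With the replicate number as a block 4 members were called at 42 µM, as E2F1 joined at -0.77 (adjusted p = 0.0349), and so were 28 of the 47 target genes.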

Other observations

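The brightest probes of E2F3, RB1 and E2F4 varied together in a way that did not follow the dose. Over the 12 arrays, which share treatments and slides, E2F3 correlated with RB1 at 0.85, and E2F4 correlated with E2F3 at -0.90 and with RB1 at -0.81. The second RB1 probe correlated with the brighter one at -0.70 and the second E2F4 probe with its brighter one at -0.36. The second RB1 probe read lowest on replicate 1 at 28 µM and at 42 µM, 7.68 and 7.72. The probes of 1 gene therefore did not move alike, and for E2F3, with 1 probe, this could not be checked. Replicate 1 at 28 µM and at 42 µM, both on slide 2, had the lowest E2F4 values, 7.29 and 7.37, and the highest E2F3 values, 10.00 and 9.96. DMSO replicate 4 lies on the same slide and read 8.69 for E2F4 and 9.50 for E2F3. The correlation with the share of spots well above background on an array was 0.10 for E2F4, -0.02 for E2F3 and -0.10 for RB1, given without a test. The brightest probes of E2F3 and RB1 begin at bases 4908 and 4590 of their transcripts and that of E2F4 at base 1104. The second RB1 probe begins at base 855 and the second E2F4 probe at base 1964. What lies behind the pattern was not tested.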
